A study of Mus musculus with 3 samples.

Results

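Neurons that the deposited annotation calls VC, for ventral cholinergic, and VM, for ventral mixed, were taken from single-nucleus RNA sequencing of the mouse lumbar spinal cord. The names come from the authors' mapping of each nucleus to a published reference of spinal neurons, and nuclei annotated as motor neurons were left out. There were 350 VC nuclei and 176 VM nuclei, which were 3.98% and 2.0% of the 8800 neurons other than motor neurons and part of 14662 nuclei in all. Of the VC and VM nuclei, 0 carried the motor neuron annotation.

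The nuclei came from 12 mice aged 90 days. SOD1G93A mice, of the strain B6.Cg-Tg(SOD1G93A)1Gur/J, are high-copy transgenics for human SOD1 in a mutant form known from familial amyotrophic lateral sclerosis (ALS). C57BL/6J littermates served as wild-type (WT) controls. There were 6 mice of each genotype, and each of 3 pools, A, B and C, held 1 female and 1 male of both genotypes, told apart by hashtag antibodies. The mouse is the replicate throughout, and the 4 mice of a pool shared 1 10x library.

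Acetylcholine is made by choline acetyltransferase (Chat), loaded into vesicles by Slc18a3 and broken down outside the cell by acetylcholinesterase (Ache), after which Slc5a7 takes choline back up. In the ventral horn, motor neurons are the best known cholinergic cells, and a small group of cholinergic interneurons forms large C-bouton synapses on them. The lumbar cord can also hold cholinergic neurons of the autonomic column, while most ventral interneurons release glutamate, loaded by Slc17a6, or GABA and glycine, which use Gad1, Gad2, Slc32a1 and Slc6a5. The comparisons below ask which of these genes the VC and VM nuclei carry and whether the nuclei differ between genotypes.

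A VC nucleus had a median of 16800.5 UMIs (unique molecular identifiers, each a counted RNA molecule) and a VM nucleus 17152.5. The medians were 19812 in ventral excitatory (VE) neurons, 23031 in ventral inhibitory (VI) neurons, 53245 in the 67 motor neurons, 5786 in oligodendrocytes and 5338 in astrocytes. A mouse gave 14 to 54 VC nuclei and 1 to 36 VM nuclei, the lowest VM number being that of the pool A SOD1G93A female. The mapping score, which runs from 0 to 1, had a median of 0.62 in VC and 0.39 in VM. There were 15 barcodes that occurred in 2 pools, and 2 VC or VM nuclei carried one of them.

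Only 2 of these nuclei had over 100000 UMIs, and both were VC. One, from the female WT mouse of pool C, held 333054 UMIs, 30.6% of all VC UMIs of that mouse. The other, from the female SOD1G93A mouse of pool A, held 133296 UMIs, or 39.3%, and carried 38 of the 42 Chat UMIs of the VC nuclei of that mouse. Values in VC and in cluster 56 that they move most are given with and without them.

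Summed over all nuclei of the class in a mouse, Chat was at 51.1 ± 29.3 CPM (SD, n = 6) in the VC neurons of WT mice, where CPM scales the UMIs of a gene to all UMIs of the class in that mouse. The lowest mouse was at 2.74, the median at 57.98 and the highest at 82.3. In SOD1G93A mice Chat in VC was at 57.9 ± 39.5 CPM (SD, n = 6), with a lowest value of 2.81, a median of 55.1 and a highest of 124. The groups overlapped, and 1 mouse of each genotype was under 3 CPM. The highest value came from the mouse with the nucleus of 133296 UMIs. Without the large nuclei the SOD1G93A mean was 40.5 ± 24.9 CPM and the WT mean 50.8 ± 29.6 CPM (SD, n = 6 each), so the order of the genotype means turned.

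Chat lies on chromosome 14 at 32408203 to 32465989, on the minus strand (GRCm38, GENCODE annotation), and the vesicle transporter gene Slc18a3 lies inside it on the same strand. Slc18a3 had 0 UMIs in all 14662 nuclei, motor neurons included, beside 1567 Chat UMIs, so its level could not be measured here.

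In motor neurons Chat was at 165 ± 71.4 CPM in WT mice (SD, n = 6), above the VC level, with WT mice from 78.1 to 274. In VM neurons it was at 13.8 ± 15 CPM in WT and 25.5 ± 16.8 CPM in SOD1G93A mice (SD, n = 6 each). VE neurons had 2.89 ± 1.85, VI neurons 1.3 ± 1.29, oligodendrocytes 1.56 ± 1.35 and astrocytes 6.22 ± 6.47 CPM in WT mice (SD, n = 6 each). The last pair of classes should lack Chat and stand for background from free RNA. The order of the WT means was thus motor neurons, VC, VM, astrocytes, VE, oligodendrocytes and VI, and the ranges of all neighbours in it overlapped, those of motor neurons and VC only between 78.1 and 82.3 CPM. Because the names were given from the same transcripts, these differences between classes are a description and were not tested.

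Slc5a7, the choline transporter, was at 47.6 ± 36.4 CPM in VC of WT mice and 48.7 ± 24.2 CPM in VC of SOD1G93A mice (SD, n = 6 each). The WT values ran from 10.9 through a median of 43.3 to 111 and the SOD1G93A values from 5.62 through 56.5 to 68.4, so the groups overlapped. Without the large nuclei the means were 47.9 ± 36.3 CPM in WT and 38.1 ± 27.7 CPM in SOD1G93A mice (SD, n = 6 each). In motor neurons the means were 163 CPM in WT and 282 CPM in SOD1G93A mice. VM neurons, at 6.75 CPM in WT mice, were below astrocytes at 21.5 CPM and oligodendrocytes at 10.1 CPM. As a class, VM was therefore not above these glial classes for Slc5a7, and their nuclei held fewer UMIs than VM nuclei. Summed over all nuclei, Slc5a7 was at 4.22 CPM in VE and 3.31 CPM in VI. The VM nuclei of deposited cluster 57, described below, were at 51.8 CPM.

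**Figure D1:**
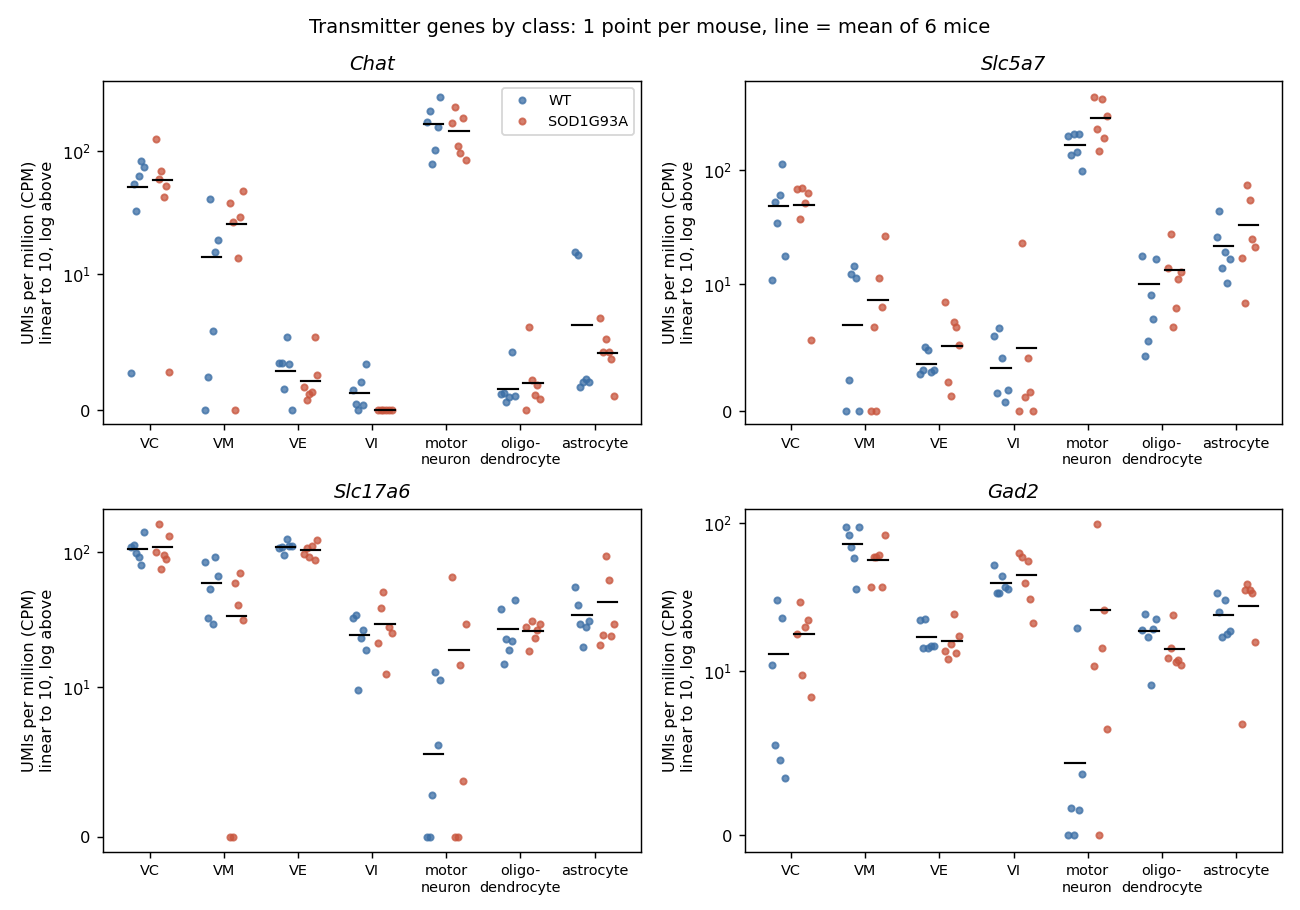
Each point is a mouse and each line the mean of 6 mice; the vertical axis is the CPM of the UMIs summed over the nuclei of a class, linear up to 10 and logarithmic above, and the classes are on the horizontal axis. Chat and Slc5a7 are highest in motor neurons and next highest in VC, Slc17a6 stands as high in VC as in VE, and Gad2 is highest in VM.

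Most VC nuclei showed no cholinergic transcript. A UMI of Chat or Slc5a7 was found in 101 of 350 VC nuclei, 28.9% (exact 95% interval 24.2 to 33.9), and in 37 of 176 VM nuclei, 21.0% (15.3 to 27.8). The share was 98.5% in motor neurons, 12.8% in VE, 7.46% in VI, 6.84% in oligodendrocytes and 11.3% in astrocytes. The intervals cover counting error only, and the nuclei of a class differ in depth. When every nucleus was thinned to 5000 UMIs and shallower ones were left out, the shares were 20.0% of 345 VC nuclei, 9.83% of 173 VM nuclei, 74.6% of 67 motor neurons, 4.66% of VE and 9.46% of astrocytes. VC stayed above every background class at equal depth, while the VM share was close to that of astrocytes and above that of VE. Of 491 thinned VI nuclei, 2 had cholinergic UMIs alone and 9 had them beside inhibitory ones. Thinning matches the UMIs of a nucleus and not the part of them from free RNA, which was not measured.

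Slc17a6, the glutamate loader, was at 105 ± 20.8 CPM in VC of WT mice and 109 ± 9.14 CPM in VE (SD, n = 6 each). In the 12 mice its VC level ran from 74.9 to 160 CPM. At least 1 Slc17a6 UMI was present in 67.1% of VC and 67.5% of VE nuclei, against 34.1% of VM, 22.0% of VI and 12.4% of oligodendrocytes. In VM its level was 59.1 ± 25.8 CPM in WT and 33.5 ± 29.2 CPM in SOD1G93A mice, with 0 UMIs in the VM nuclei of 2 SOD1G93A mice, which had 1 and 6 such nuclei.

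VM neurons were the class with the most GABA-synthesis transcripts among those compared. Gad2 was at 72.6 ± 22.9 CPM in VM of WT mice, from 36.1 to 94.5, against 39.4 ± 7.22 in VI, 17.1 ± 4.04 in VE and 12.98 ± 11.1 in VC (SD, n = 6 each), the last being 9.69 ± 7.22 without the large nuclei. Gad1 was at 38.3 CPM in VM, 18.2 in VI and 8.49 in VC. The glycine transporter gene Slc6a5, in contrast, was lower in VM, at 99.3 ± 59.7 CPM, than in VI, at 152 ± 25.4, although the ranges overlapped.

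Nos1, which makes nitric oxide, was at 34.8 ± 31.7 CPM in VC and 64.1 ± 57.2 CPM in VM of WT mice, and its mean was at most 8.85 CPM in VE, VI, motor neurons, oligodendrocytes and astrocytes of WT mice. It varied widely between mice, from 8.21 to 94.3 CPM in VC and from 0 to 151 CPM in VM among WT mice. In VC of SOD1G93A mice its mean was 42.6 CPM with and 26.96 CPM without the large nuclei. Of the other genes of acetylcholine handling, Prima1, which anchors acetylcholinesterase in the membrane, was at 37.5 CPM in VC and 26.3 in VM of WT mice against 6.99 in VE, 7.69 in VI and 78.5 in motor neurons. Oligodendrocytes had 97.0 CPM of Prima1, and the part of free RNA in it was not tested. Ache itself was at 43.9 ± 12.5 CPM in VC, 30.4 in VM, 24.6 in VE, 25.8 in VI and 22.2 in motor neurons, with overlapping ranges.

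These averages hid a division among the deposited clusters, which the authors made from all nuclei. Of the 350 VC nuclei, 142 lay in cluster 24 and 79 in cluster 0, together 221, and their Chat levels were 1.1 and 5.23 CPM. Both clusters had Slc17a6 at high levels, 165 and 124 CPM. A Chat or Slc5a7 UMI was present in 8.45% (4.44 to 14.3) of the VC nuclei of cluster 24 and 12.7% (6.24 to 22.0) of those of cluster 0, shares that include the astrocyte share of 11.3%. For these 221 nuclei the defining markers of the label, Chat and Slc5a7, were thus at background, and they are called here by cluster number.

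Cluster 24 had Lmx1b, a transcription factor gene, at 170 CPM, and its leading genes by fold over other neurons were Calcr, the calcitonin receptor, at 53.8 CPM, Abcc9 at 64.8 CPM and the neuropeptide gene Nms at 20.1 CPM. Cluster 0 was led by genes that included Lhx2, a transcription factor gene, at 26.2 CPM, the neuropeptide receptor gene Npffr1 at 33.1 CPM and the mechanosensitive channel gene Piezo2 at 290 CPM. Of the 800 nuclei in cluster 0, 652 carried the VE label and 79 the VC label. Both clusters were found in all 12 mice.

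The cholinergic transcripts were concentrated in 4 other clusters, numbers 54, 56, 57 and 58, which held 108 of the VC nuclei. Cluster 56, with 52 nuclei that were all labelled VC, had 55.99% of the Chat UMIs and 67.9% of the Slc5a7 UMIs of VC. Its Chat level was 163 CPM and its Slc5a7 level 199 CPM, beside 154 and 218 CPM in the summed motor neurons. A Chat UMI was found in 44 of its 52 nuclei (84.6%, 71.9 to 93.1), and 82.7% had a Chat or Slc5a7 UMI at 5000 UMIs.

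Several genes of cholinergic efferent neurons were also seen in cluster 56, while others were low there. Isl1, a transcription factor gene of motor neurons, was at 29.6 CPM, Prph, which encodes peripherin, at 41.7 CPM, Slit3 at 1682 CPM and Nos1 at 97.9 CPM. Between pools Isl1 ran from 4.52 to 62.8 CPM and Prph from 2.26 to 97.6 CPM. The summed motor neurons had Isl1 at 16.0, Prph at 85.5 and Slit3 at 1065 CPM. Fbn2, which encodes a fibrillin and was placed on the list of visceral preganglionic genes, was at 589 CPM, and Postn and Creb5 were among the leading genes at 85.0 and 664 CPM. Tns1 and Chodl, at 288 and 105 CPM in the summed motor neurons, were at 29.6 and 10.6 CPM in cluster 56, and Slc17a6 was at 17.5 CPM. Calca was at 4.55 CPM there (85.5 in motor neurons), Bcl6 at 9.87 (106), Ret at 28.8 (92.1) and Nefh at 24.3 (99.7). Mnx1 and Isl2, at 3.04 and 4.57 CPM in motor neurons, had 0 and 1 UMI in cluster 56. The nucleus of 333054 UMIs was in this cluster, and its published-reference label was DE_13, a dorsal excitatory one, while every other VC nucleus was VC_1 or VC_2. Without it the levels of the cluster were 206 CPM for Chat, 256 for Slc5a7, 39.6 for Isl1, 55.9 for Prph, 2204 for Slit3, 126 for Nos1, 773 for Fbn2, 114 for Postn and 811 for Creb5.

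Cluster 58 was different in kind. Its 42 VC nuclei had Chat at 88.4, Slc5a7 at 87.3 and Prima1 at 104 CPM together with Slc17a6 at 82.7 CPM. The neuropeptide gene Cartpt and Crhbp, which encodes a binding protein of corticotropin-releasing hormone, were among its leading genes at 172 and 73.7 CPM. A Chat or Slc5a7 UMI was nevertheless found in only 16 of these nuclei, 38.1% (23.6 to 54.4), so these transcripts came from a minority of the cluster. Cluster 58 was seen in all 12 mice.

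The 13 VC nuclei of cluster 54 had Chat at 87.7 CPM but 1 Slc5a7 UMI in all, and Slc6a5 at 499 CPM and Nos1 at 225 CPM. Their leading gene by fold was the nuclear receptor gene Nr5a2, at 492 CPM. The 1 VC nucleus in cluster 57 was the one of 133296 UMIs.

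**Figure D2:**
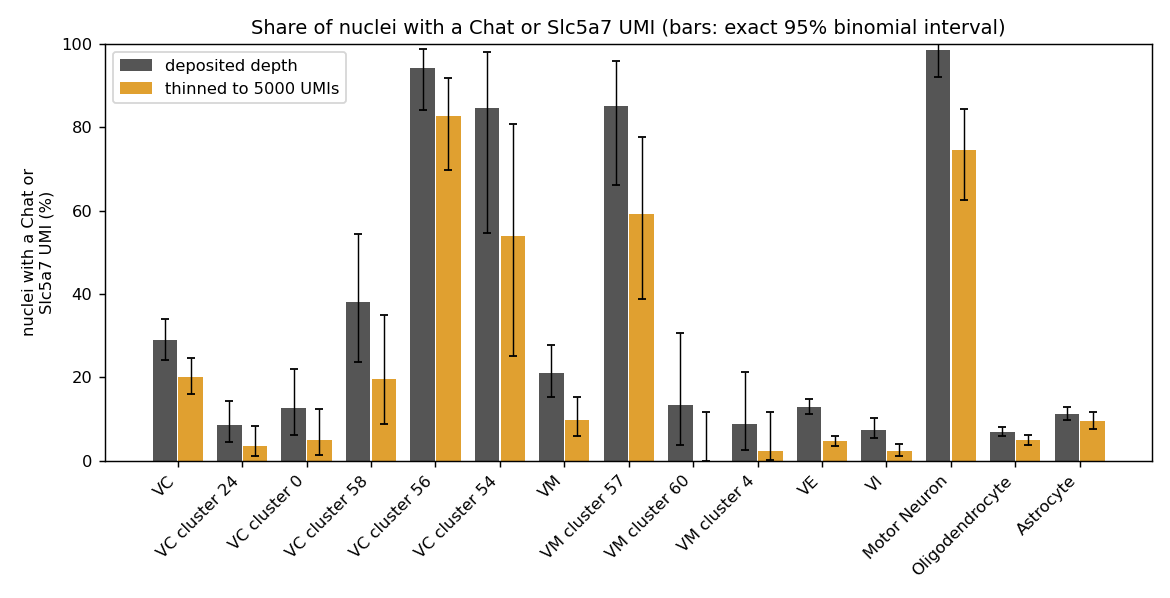
Bars give the percent of nuclei with at least 1 Chat or Slc5a7 UMI at the deposited depth and after thinning to 5000 UMIs, with exact 95% binomial intervals, for VC, VM, their larger clusters and the comparison classes. Clusters 56 and 54 of VC and 57 of VM stand near 85% or above at the deposited depth, while clusters 24 and 0 stand at the astrocyte level.

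The VM nuclei were divided in the same manner. Cluster 57, with 27 VM nuclei from 10 mice, carried 86.6% of the Chat UMIs and 80% of the Slc5a7 UMIs of the class. Its Chat level was 107 CPM, with Gad1 at 77.7, Gad2 at 99.9, Nos1 at 488 and the transcription factor gene Pax2 at 218 CPM, and Slc17a6 was at 5.55 CPM. Of these 27 nuclei, 21 had UMIs of both cholinergic and inhibitory genes and no Slc17a6 UMI. Its leading genes included Irx1 and, at 163 CPM, Pde5a, a phosphodiesterase of the cyclic GMP pathway through which nitric oxide acts.

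Cluster 60 held 30 VM nuclei and was led by Sim1, the transcription factor gene that marks the V3 class of excitatory ventral interneurons, at 209 CPM. Slc17a6 was at 185 CPM and Gad2 at 5.05 CPM there. Dach2 at 485, Angpt1 at 357 and Rnf220 at 1801 CPM were also among its leading genes, and Chat was at background, 5.05 CPM. Cluster 4, with 45 VM nuclei, was inhibitory by its genes, with Slc6a5 at 147, Gad2 at 102 and Pax2 at 126 CPM and Slc17a6 at 2.49 CPM. Clusters 11 and 22, of 19 VM nuclei each, also had Gad2 and Slc6a5, at 96.8 and 127 CPM in cluster 11 and 59.8 and 114 CPM in cluster 22. Microglial and endothelial genes (Siglech, Ptprc, Flt1) were among the leading genes of cluster 11, at 33.1, 22.9 and 53.5 CPM, and their part in its other values was not tested.

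**Figure D3:**
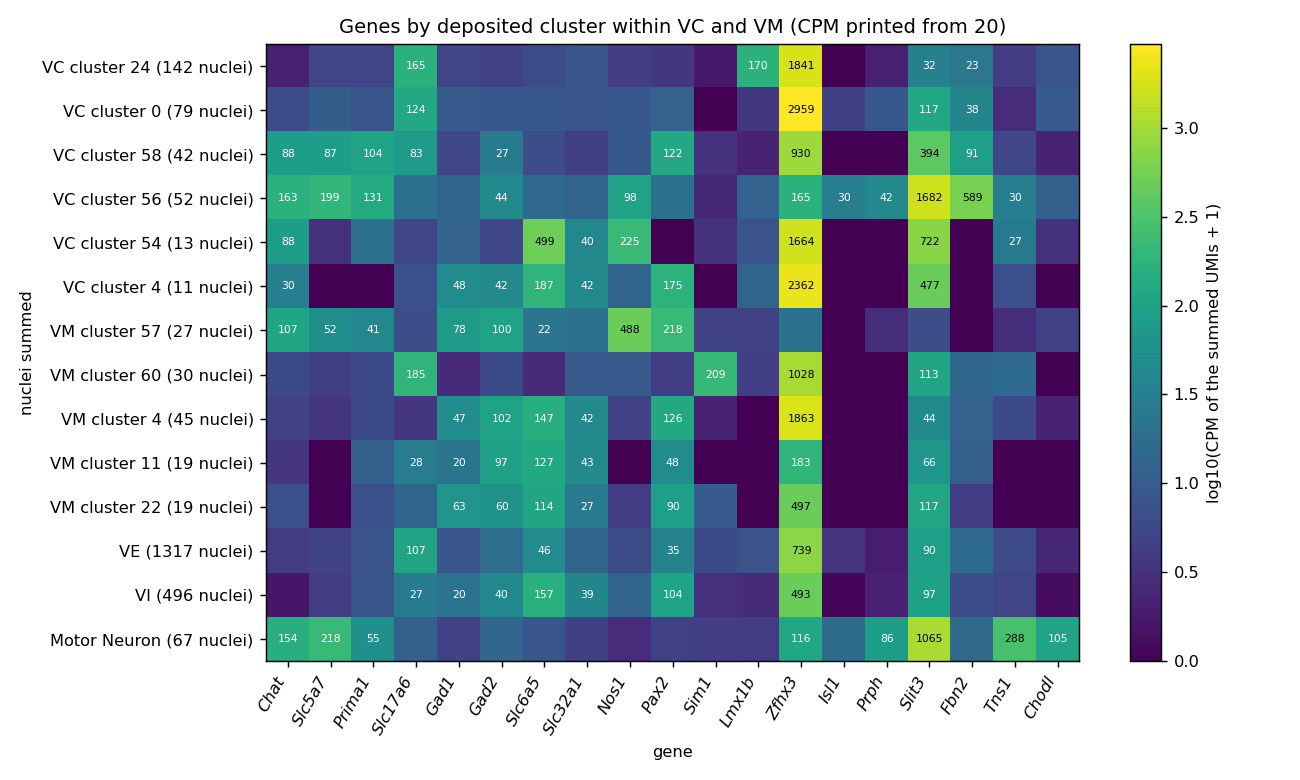
Colour gives log10(CPM + 1) of the UMIs summed over all nuclei of a row, with values of at least 20 CPM printed; rows are the clusters with at least 10 VC or VM nuclei and VE, VI and motor neurons, columns are genes. Chat is bright in clusters 54, 56 and 58 of VC and 57 of VM, and dark in clusters 24 and 0, where Slc17a6 is bright.

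Beyond transmitters, genes with the highest ratio of VC to any other neuron class in WT mice included Abcc9, which encodes a subunit of ATP-sensitive potassium channels, at 23.8 CPM and 6.43 times the next class, and Cartpt, at 23.2 CPM and 4.33 times. Piezo2 was at 160 ± 88.1 CPM (SD, n = 6), 2.61 times the next class, which was VM, and Ndst4, an enzyme of heparan sulphate synthesis, at 503 ± 163 CPM, 2.29 times. In VM the highest ratio was that of Sim1, at 58.2 ± 39.4 CPM and 9.06 times VE, followed by Gm13974 at 3.02 times and Gli3 at 2.32 times. Nos1 was at 1.84 times VC and Dach2 at 1.84 times the dorsal excitatory class. In SOD1G93A mice the ratio was 5.48 for Sim1, 2.25 for Nos1 and 1.29 for Gli3 but 0.46 for Gm13974 and 0.70 for Dach2, so VM was not the highest class for the last pair. The ratio was under 1 for 7 of the 15 leading genes of VM, Rnf220 at 0.58 among them, and for 3 of the 15 of VC, Pmfbp1 at 0.49, 2600014E21Rik at 0.31 and Spata1 at 0.89. In VC it was 8.19 for Abcc9, 3.26 for Cartpt, 1.75 for Piezo2 and 2.85 for Ndst4. These genes were chosen by the ratio, which is therefore a description.

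The calcium-activated potassium channel gene Kcnn3 was at 101 ± 20.3 CPM in VC of WT mice and at 13.5 in VM, 16.5 in VE, 10.1 in VI and 25.5 in motor neurons. Among glutamate receptor genes, the AMPA receptor subunit Gria1 was at 748 ± 70 CPM in VC and 776 ± 187 in VM, against 246 ± 26.4 in VE, 180 ± 29.8 in VI and 142 ± 36.3 in motor neurons (SD, n = 6 each), and in WT mice the ranges of VC and VM lay above those of the other 3 classes. In SOD1G93A mice VM ran from 186 to 1138 CPM, the lowest value being that of the mouse with 1 VM nucleus. The kainate receptor subunit Grik1 was at 864 CPM in VC, 543 in VM, 314 in VE and 361 in VI. Astrocytes had 75.2 CPM of Kcnn3 and 556 CPM of Gria1. The homeobox gene Zfhx3 was at 1658 CPM in VC, 1037 in VM and 839 in VE.

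The share of VC nuclei did not differ between genotypes by the test. VC made up 2.46% ± 0.53 of the nuclei of a WT mouse and 2.25% ± 0.42 of those of a SOD1G93A mouse (SD, n = 6 each), with a log2 ratio of -0.13 (edgeR quasi-likelihood test over 18 classes, adjusted p = 0.696, exact two-sided sign-flip permutation test over the 6 pairs of 1 sex and pool, p = 0.3125). WT shares ran from 1.67% to 3.33% and SOD1G93A shares from 1.68% to 2.77%. As a share of neurons alone, VC was at 3.84% in WT and 4.33% in SOD1G93A mice (exact permutation p = 0.281), so the sign of the difference depended on the denominator.

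VM made up 1.32% ± 0.56 of nuclei in WT and 0.84% ± 0.36 in SOD1G93A mice (SD, n = 6 each), lower in 5 of 6 pairs. The log2 ratio was -0.68 (edgeR quasi-likelihood test, adjusted p = 0.253, exact permutation p = 0.0625, where 0.03125 is the smallest possible), which did not pass. WT shares ran from 0.68% to 2.26% and SOD1G93A shares from 0.18% to 1.14%, and the groups overlapped. Of 18 classes 0 passed at an adjusted p of 0.05 by edgeR, 4 had an unadjusted p under 0.05, and VC and VM were not among those 4. Shares of nuclei depend on which nuclei were recovered from the tissue, and a loss of cells cannot be told apart from a change in recovery.

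Within the classes, the clusters were unevenly divided between genotypes. Cluster 56 held 41 nuclei of WT and 11 of SOD1G93A mice, a mean of 15.7% and 5.96% of the VC nuclei of a mouse, lower in 5 of 6 pairs and at 0 in both mice of the other pair. The pool A males had 6 of 40 VC nuclei there in WT and 4 of 27 in SOD1G93A (15% and 14.8%). The pool A females had 3 of 27 and 0 of 14, so the cluster 56 pairs rest on few nuclei. Cluster 60 held 25 nuclei of WT and 5 of SOD1G93A mice, 20.8% and 6.98% of the VM nuclei of a mouse, lower in all 6 pairs. The SOD1G93A females had 1, 6 and 7 VM nuclei, with 0 in cluster 60, and the pool C males had 2 of 8 in WT and 2 of 9 in SOD1G93A, so these pairs rest on few nuclei. The ranges overlapped, from 0% to 31.5% and 0% to 15.4% for cluster 56 and from 10% to 30.6% and 0% to 22.2% for cluster 60. The clusters were chosen after their values were seen, so no test is given.

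**Figure D4:**
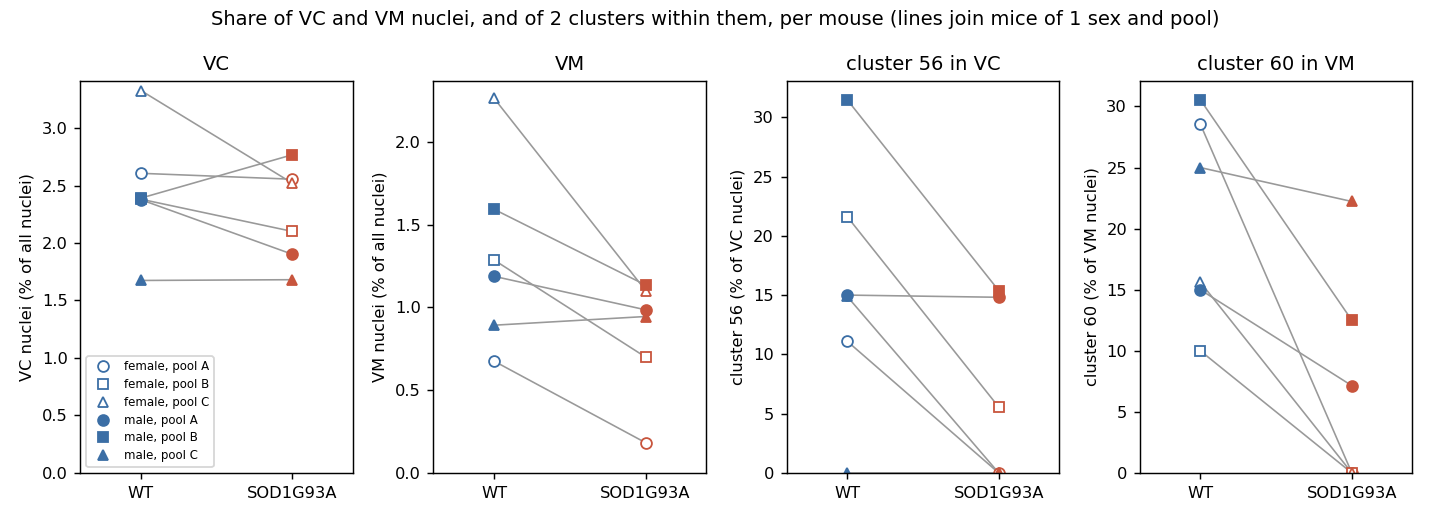
Percent of VC and VM among all nuclei of a mouse, of cluster 56 among VC nuclei and of cluster 60 among VM nuclei; lines join the WT and SOD1G93A mouse of 1 sex and pool, symbols mark the pool, open symbols females and filled ones males. VC points overlap between genotypes, and the cluster 60 point is lower in SOD1G93A in all 6 pairs, in 1 of which the SOD1G93A mouse had 1 VM nucleus.

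Few genes passed the test for a genotype difference in VC. Of 6756 genes tested, 2 passed an adjusted p (FDR) of 0.1, which is 0.0296% of those tested (limma with voom on UMI sums per mouse, pool as a block). They were Sod1, which rose, and Necab1, which fell, so that each direction held 0.0148% of the genes. At an unadjusted p under 0.05 there were 268 genes (3.97%), 126 higher (1.87%) and 142 lower (2.1%). Of all genes tested 49.5% had a lower mean in SOD1G93A mice, and the median log2 fold change was 0.0025.

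Sod1, on chromosome 16 at 90220754 to 90226329, rose by 1.68 on the log2 scale (SE 0.20, adjusted p = 0.000973, limma) in VC. In CPM scaled by the library factors, the WT mice were at 80.7, 28.5 and 16.8 (females of pools A, B and C) and 51.5, 28.4 and 30.1 (males), and the SOD1G93A mice at 152, 93.5 and 79.7 and 236, 65.3 and 92.7. The value was higher in 6 of 6 pairs, and the groups overlapped only because the female WT mouse of pool A was above 2 SOD1G93A mice of other pools. Without the pool as a block the same gene had an adjusted p of 0.677.

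Necab1, which encodes a neuronal calcium-binding protein, fell by 1.11 on the log2 scale (SE 0.18, adjusted p = 0.0337, limma) in VC. The WT mice were at 121, 113 and 83.8 scaled CPM (females of pools A, B and C) and 85.8, 110 and 79.1 (males), and the SOD1G93A mice at 47.5, 33.7 and 48.5 and 63.1, 47.9 and 32.9. The groups did not overlap, as was the case for 11 genes in VC (0.163%), 6 of them higher (0.0888%) and 5 lower (0.074%), and the value was lower in 6 of 6 pairs. Necab1 was lower in the SOD1G93A nuclei of clusters 24 (139 CPM in WT, 64.0 in SOD1G93A), 0 (101 and 49.4), 56 (53.4 and 4.32) and 58 (67.1 and 22.1), so its direction was the same within these clusters; in cluster 56 the SOD1G93A value rests on 1 UMI. Of its 409 UMIs in VC of WT mice, 204 came from cluster 24 and 75 from cluster 0. In SOD1G93A mice these were 81 and 20 of 120. Chat and Slc5a7 were at background in both clusters, so most Necab1 UMIs came from nuclei without clear cholinergic transcripts. The Necab1 call was lost in 6 of 23 alternative settings. Among them were leaving out the male WT mouse of pool B (adjusted p = 0.149) or the SOD1G93A female of pool B (0.239). Leaving out the SOD1G93A male of pool B (0.173) or of pool C (0.130) also lost it. So did a minimum count of 30 and the fit of clusters 54, 56, 57 and 58 alone, which was chosen after seeing the data. The highest adjusted p over the 23 settings was 0.561 (limma). The fit of nuclei with a Chat or Slc5a7 UMI did not give a Necab1 call.

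In the other classes Necab1 had log2 fold changes of 0.09 in VM (SE 0.30), -0.13 in VE (SE 0.14), -0.72 in VI (SE 0.25) and -0.24 in motor neurons (SE 0.54), each with an adjusted p above 0.8 by limma. The difference between VC and the others was tested only against VM, in the fit of VC minus VM, where Necab1 was at -1.56 (SE 0.47, adjusted p = 0.889, limma).

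No other gene passed in VC by limma in the fit with all mice. Tox3 and Xpo1 were closest, at 0.92 and 1.08 on the log2 scale (SE 0.17 and 0.20, adjusted p = 0.124 for both, limma), and both were higher in 6 of 6 pairs. Xpo1, the main nuclear export receptor, ran from 37.7 to 121 scaled CPM in WT and from 132 to 174 in SOD1G93A mice, without overlap. It passed in 7 of 24 alternative settings, among them DESeq2 (adjusted p = 0.0195) and no filter on low counts (0.0162). It had log2 fold changes of 0.47 in VE, 0.49 in VI, 0.42 in VM and 0.68 in motor neurons, the last with an adjusted p of 0.0928 by limma. Tox3, which passed in 2 of 24 settings, was at 0.77 in VM, -0.44 in VE and -0.99 in VI, none of them past the adjusted threshold. Within VC, with nuclei summed over mice, Tox3 was higher in SOD1G93A mice in 5 of 6 clusters, such as 24 (69.5 CPM in WT, 127 in SOD1G93A) and 56 (55.2 and 147). It was lower in cluster 0 (87.6 and 61.7). Of those 5, cluster 54 had only 0 UMIs in WT and 8 in SOD1G93A mice, and cluster 4 had 7 and 9.

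Pard3b, a cell polarity gene, had a value of -1.49 in VC (SE 0.29, adjusted p = 0.282, limma), with WT mice from 71.6 to 180 scaled CPM and SOD1G93A mice from 31.2 to 68.8. It passed in 6 of 24 alternative settings, among them edgeR (adjusted p = 0.0764), DESeq2 (0.00384) and no filter on low counts (0.0151). Pard3b did not pass without cluster 56 or in nuclei with a Chat or Slc5a7 UMI. Nor did it pass in clusters 0 and 24 alone or in clusters 54, 56, 57 and 58 alone. Of its 580 UMIs in VC of WT mice, 315 came from cluster 56, which also held fewer SOD1G93A nuclei. Its level in that cluster was 290 CPM in WT mice, or 325 without the large nucleus, and 56.1 in SOD1G93A mice. It was also lower in SOD1G93A mice in clusters 0 (186 and 93.8 CPM), 58 (60.1 and 15.8) and 4 (195 and 23.6). In cluster 24 it was at 31.4 and 27.7 CPM and in cluster 54 at 33.3 and 38.4 CPM. The SOD1G93A values rest on 5 UMIs in cluster 58 and 1 UMI in cluster 4, and those of cluster 54 on 7 and 9 UMIs.

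In VM 1 of 4123 genes passed (0.0243%), and 182 (4.41%) had an unadjusted p under 0.05, 93 higher (2.26%) and 89 lower (2.16%). Of all genes tested 48.8% had a lower mean in SOD1G93A mice. That gene was again Sod1, which rose by 1.75 (SE 0.29, adjusted p = 0.0197, limma). The WT mice were at 69.6, 33.2 and 16.2 scaled CPM (females of pools A, B and C) and 78.0, 20.9 and 53.0 (males), and the SOD1G93A mice at 78.2, 85.6 and 119 and 170, 70.8 and 99.5. It was higher in 6 of 6 pairs. The call was lost without the pool block (adjusted p = 0.401) and when the WT female of pool C (0.218) or the SOD1G93A female of pool B (0.251), female of pool C (0.326) or male of pool A (0.150) was left out. The female SOD1G93A mouse of pool A entered with 1 nucleus, and the fit without that mouse gave 1.85 (adjusted p = 0.00234).

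Fitted in the same way, the Sod1 change was 1.64 in VE (SE 0.16), 1.53 in VI (SE 0.18) and 3.85 in motor neurons (SE 0.32), on the same mice. Whether the motor neuron value differs from the VC value was not tested. Reads of the human transgene that align to mouse Sod1 could count toward this row, and their part was not tested.

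The genes next in order in VM did not pass by limma in the fit with all mice. Angpt1 was at -2.23 (SE 0.47, adjusted p = 0.220) and Dach2 at -2.03 (SE 0.46, adjusted p = 0.248, both limma), and Celf2, an RNA-binding protein gene, at 0.72 (SE 0.16, adjusted p = 0.248). Cluster 60 supplied 82.2% of the Angpt1 and 82.7% of the Dach2 UMIs of WT VM nuclei. Within cluster 60 the levels were 371 CPM in WT and 282 in SOD1G93A mice for Angpt1, and 487 and 471 for Dach2. In cluster 4 Angpt1 was at 43.8 CPM in WT (26 UMIs) and 4.76 in SOD1G93A mice (1 UMI), and Dach2 at 50.5 and 57.1. Both were higher in SOD1G93A mice in cluster 11, Angpt1 at 21.4 and 44.0 CPM and Dach2 at 0 and 50.3, while in cluster 57 Angpt1 was at 9.57 and 17.6 CPM and Dach2 at 22.3 and 0. The part of the smaller share of cluster 60 in the class difference was not tested. Without that cluster neither gene passed the filter on low counts. Angpt1 passed in 5 of 20 and Dach2 in 4 of 20 alternative settings, both with edgeR (adjusted p = 0.0178 for each), DESeq2 (0.0195 for each) and no filter on low counts (1.78e-05 and 1.55e-05). Celf2 was at 445 to 812 scaled CPM in WT and 861 to 1186 in SOD1G93A mice, without overlap. Within clusters it was at 399 CPM in WT and 410 in SOD1G93A mice in cluster 4, 441 and 471 in cluster 60, 454 and 514 in cluster 22, 915 and 1146 in cluster 57 and 411 and 830 in cluster 11. Without the nuclei with a Chat or Slc5a7 UMI the fold change was 0.36 (adjusted p = 0.981, limma). The groups did not overlap for 17 genes in VM (0.412%), 7 of them higher (0.17%) and 10 lower (0.243%).

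**Figure D5:**
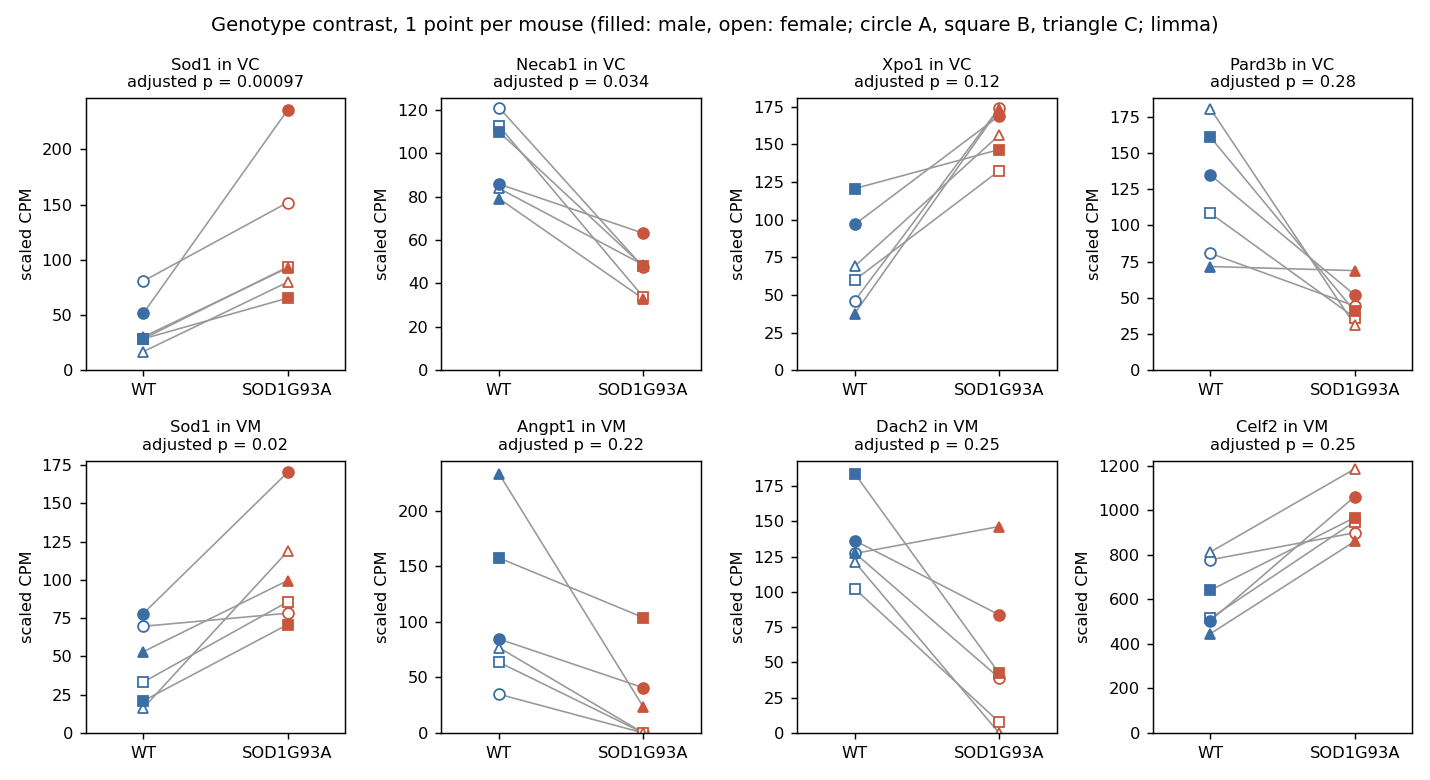
Scaled CPM per mouse of 4 genes in VC (top) and 4 in VM (bottom), with lines joining the mice of 1 sex and pool and the adjusted p of limma above each panel. Sod1 rises in all 6 pairs of both classes and Necab1 falls in all 6 pairs of VC, without overlap.

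In the gene lists, Sod1 was the only member that passed in either class by limma in the fit with all mice, and the lists as groups were not tested. Of 9 genes of acetylcholine synthesis, storage, uptake and breakdown, 6 were abundant enough to be tested in VC, and 0 passed and 0 had an unadjusted p under 0.05. Chat was at 0.08 and Slc5a7 at -0.10 on the log2 scale, and Ache at -0.47 (unadjusted p = 0.067). In VM 3 of the 9 were tested, without Chat and Slc5a7, and 0 passed. All 3 of the 14 acetylcholine receptor genes that could be tested, Chrm2, Chrm3 and Chrna7, were also without a call in VC and VM.

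Among 27 genes mutated in familial ALS, 16 were tested in VC and 15 in VM, and Sod1 alone passed in each. Optn, which encodes the autophagy receptor optineurin, was at 0.45 in VC with an unadjusted p of 0.047. Of 22 injury and stress genes, 11 were tested in VC and 7 in VM, and 0 passed, with 0 and 1 at an unadjusted p under 0.05; 10 of the 11 had a positive value in VC, with a median of 0.13, beside 3409 of 6756 genes and 0.0025 over all genes tested. In VM 4 of the 7 were positive, with a median of 0.086, beside 2109 of 4123 genes and 0.0075 over all genes tested. Of 19 ionotropic glutamate receptor genes, 18 were tested in each class with 0 calls, 1 in VC and 2 in VM having an unadjusted p under 0.05 with positive values, and Grik3 in VC was at 0.64 (adjusted p = 0.996, limma). Of 17 GABA-A and glycine receptor genes, 16 and 13 were tested with 0 calls. In VM 4 of the 13 had an unadjusted p under 0.05, 2 with positive and 2 with negative values, and in VC 0 of the 16 did, where 4.41% of all genes tested in VM and 3.97% in VC had one. Gabrg3 in VM was at -0.69 (SE 0.18, adjusted p = 0.606, limma) and passed with no filter on low counts (adjusted p = 0.0435). Cluster 60 supplied 58.7% of its WT UMIs, and within clusters its level was higher in SOD1G93A mice in cluster 60 (3295 CPM in WT, 4886 in SOD1G93A), cluster 4 (755 and 843) and cluster 11 (964 and 1496) and lower in cluster 22 (1242 and 1027).

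Of 34 transcription factor genes of ventral neuron classes, 7 were tested in VC and 9 in VM with 0 calls, and 0 in VC and 3 in VM, 1 higher and 2 lower, had an unadjusted p under 0.05, beside 3.97% and 4.41% of all genes. Sim1 in VM was at -1.25 (adjusted p = 0.94, limma), beside the smaller share of cluster 60 in SOD1G93A mice, whose part was not tested. Fbn2 in VC was at -1.41 (unadjusted p = 0.042, limma). Cluster 56, its highest cluster, had a smaller share in SOD1G93A mice, and the part of that share was not tested. Of 20 motor neuron genes, 8 were tested in VC and 6 in VM with 0 calls, and Slit3 was at -0.49 and -0.53. The genes of GABA, glycine, glutamate, monoamine and nitric oxide release, of C-bouton circuits and of the visceral list likewise gave 0 calls in both classes.

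The difference between the genotype effects in VC and in VM, with each mouse as its own control, gave 0 of 4104 genes at an adjusted p of 0.1 by limma and 197 at an unadjusted p under 0.05. The summed markers of other cell types overlapped between genotypes in both classes. The 5 oligodendrocyte markers summed to 126 to 549 CPM in VC of WT and 140 to 498 CPM in VC of SOD1G93A mice, and to 83.6 to 260 and 112 to 587 CPM in VM. The oligodendrocyte marker Mbp was at 0.75 on the log2 scale in VM, higher in SOD1G93A mice in 5 of 6 pairs (adjusted p = 0.993, limma). The 5 astrocyte markers in VC summed to values that ran from 59.5 to 173 CPM in WT and from 50.9 to 652 CPM in SOD1G93A mice, the highest in the female of pool A, which also had the large nucleus. The endothelial sum in VC reached 124 CPM and the microglial sum in VM 76.7 CPM, both in the male SOD1G93A mouse of pool A. Their part in the results was not tested.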

How the data were processed

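The deposited counts are UMIs per gene and nucleus, made by the authors with Cell Ranger 3.1 and STAR 2.5.1b on a pre-mRNA mm10 reference, without normalization. Per the authors, Seurat assigned nuclei to mice by hashtag and hashtag doublets were removed; no doublet caller was run here, so doublets within a mouse may remain. The deposited mitochondrial percent of a nucleus and the deposited mapping score, a fraction from 0 to 1, were used as descriptions. The median mitochondrial percent was 0.142 in VC of WT and 0.162 in VC of SOD1G93A mice, and 0.128 and 0.188 in VM. Its part in the genotype results was not tested. A table of sctransform values was not used. The labels of classes and clusters are those deposited by the authors.

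UMIs were summed per gene, class and mouse. Genotype was fitted with limma 3.58.1 (voom, TMMwsp factors from edgeR 4.0.16, filterByExpr with a minimum count of 10, robust eBayes, a term per sex and genotype and the pool as a block, mean effect over the sexes, Benjamini-Hochberg). Classes were counted per mouse in edgeR. DESeq2 1.42.0 was an alternative, and leaving out the nuclei of over 100000 UMIs was one chosen after seeing the data. The fits were tested on simulated counts. Counts per mouse were 285912 to 1087270 UMIs in VC and 26889 to 802444 in VM, and VM is the less precise.

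The pool is a shared library by the labels, so it pairs the mice. The median correlation of the deviations of mice from 1 pool was 0.047 in VC and 0.017 in VM, and 3 and 2 of 18 pairs were over 0.1. Between mice of different pools the median was -0.022 in VC and -0.0078 in VM. Named genes were those of fixed lists (218 of 220 genes in the table), those at an adjusted p of 0.1, the 10 higher and 10 lower genes of smallest p with the same sign in all pools, and the 15 with the highest ratio to the other neuron classes among genes of at least 20 CPM and a UMI in 5 WT mice. Members and lists were chosen with earlier results of these data known. Values of some genes are not reported here.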

Additional observations from a re-analysis of the deposited data

Results flagged for a closer look

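In 12 of 86 groups of 6 mice tested for transmitter and cholinergic genes, 1 mouse lay far from the other 5. Chance gives about 1 in 20 for normally distributed values, a rate that does not hold for genes near 0. For Slc17a7 and Slc17a8 in VC, and Slc17a8 and Bche in VM, the other 5 mice were at 0. There any UMI in 1 mouse sets the flag, so the 12 flags cannot be compared with chance. In VC these were Ache at 68.0 CPM in the male WT mouse of pool B (others up to 46.9), Slc44a1, a choline transporter gene, at 182 CPM and Gad1 at 18.4 CPM in the female WT mouse of pool C, which held the nucleus of 333054 UMIs, and Slc32a1 at 28.0 CPM in the male WT mouse of pool C. Of genes that were near 0 in the class, 1 mouse was high in each case in VC, with Slc17a7 at 2.30 CPM in the male WT mouse of pool A, Colq at 4.92 CPM in the female SOD1G93A mouse of pool B and Slc17a8 at 5.90 CPM in the female SOD1G93A mouse of pool A, where the others had at most 1.82 CPM.

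In VM, Colq was at 20.9 CPM in the female WT mouse of pool A, Slc17a8 at 1.25 CPM in the male WT mouse of pool B and Slc6a5 at 217 CPM in the male WT mouse of pool C, where the others had 59.4 to 98.5 CPM. Bche was at 6.56 CPM in the female SOD1G93A mouse of pool C. Chka, a choline kinase gene, was at 37.2 CPM in the female SOD1G93A mouse of pool A, which had 1 VM nucleus, and at 160 to 217 CPM in the others.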

How the results depend on the processing

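In VC, the 2 genotype calls became 8 with DESeq2, 9 with no filter on low counts, 1 with a minimum count of 30, 1 in nuclei with a Chat or Slc5a7 UMI, 4 in clusters 54, 56, 57 and 58 (chosen after seeing the data) and 1 to 12 leaving out each mouse, 12 without the pool A WT female. In VM, the 1 call became 3 with edgeR, 4 with DESeq2, 14 with no filter, 0 with a minimum count of 30, 0 without the pool as a replicate block, 2 without cluster 60 (chosen after seeing the data) and 0 to 5 leaving out each mouse, 5 without the pool A WT male or the pool B SOD1G93A male. The difference of VC and VM gave 0 to 3 calls leaving out each mouse, 3 without the pool A SOD1G93A female, and 0 without the replicate block. The log2 ratio of the share of VC nuclei reversed to 0.15 with neurons as library size and 0.0771 with TMM factors, and ran from -0.27 to 0.0032 leaving out each mouse, the last without the female WT mouse of pool C; none of these passed. The share of VM nuclei stayed negative, -0.89 to -0.41 leaving out each mouse. Without the pool block, VC gave calls that did not include Sod1. The cause of these differences was not tested.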
